A study of Gallus gallus with 6 samples.

Results

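DNA replication and cell division genes were followed in liver RNA of 3 chickens labelled ALV-J-resistant and 3 labelled ALV-J-susceptible. ALV-J is subgroup J of avian leukosis virus, a retrovirus. The set was taken by name. It holds every row of the deposited expression table whose symbol begins with MCM, ORC and a digit, RFC, GINS, POLA, POLD, POLE, CCNA, CCNB, CCND, CCNE, CDCA, CENP, RRM1, RRM2, AURK, PLK or BUB, or is PCNA, TK1, TOP2A, CDK1, CDK2, CDK4 or CDK6. This gave 80 of the 14481 protein-coding genes. CDK2 and CDK4 matched no row and were not analysed here. Each library is 1 bird per the labels, and age, sex, breed and infection status are not given in them. The study asked which liver genes differ between the resistant and the susceptible birds.

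A dividing cell copies its genome once and then separates the copies. The origin recognition complex (ORC) marks start sites and loads the MCM helicase, which the GINS complex helps to activate. DNA polymerases alpha, delta and epsilon then copy the strands, delta and epsilon with the PCNA clamp that replication factor C (RFC) loads. Ribonucleotide reductase and thymidine kinase supply deoxynucleotides. Cyclins and their kinases time these steps, and the aurora, polo-like and BUB kinases and the centromere proteins (CENP) act in mitosis. Most hepatocytes of a grown liver are at rest, and the liver enters division again after injury or loss of tissue.

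No gene of the set passed the test between the groups, and most of the set was listed at 0 in at least 1 bird. Levels are FPKM, fragments per kilobase of transcript, scaled to the depth of the library, so they can be compared between genes. Of the 80 genes, 15 were above 0 in all 6 birds and 10 were listed at 0 in all 6. The table as a whole had 34.5% of its genes above 0 in all 6 birds, against 18.8% of the set. It also had 26.8% of its genes listed at 0 in all 6, against 12.5% of the set. The genes with the clearest separation of the birds were CDCA7L and TK1, for which all resistant values lay under all susceptible values. RFC4, CCNB2 and CENPO lay the other way, with all resistant values over all susceptible values. TK1 was listed at 0 in every resistant bird, and RFC4 and CENPO in every susceptible bird. The groups did not overlap for 9.68% of the tested genes of the set and for 8.41% of all genes tested.

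Detection differed between birds. Resistant birds 1 to 3 listed 58, 54 and 40 of the 80 genes above 0, and susceptible birds 1 to 3 listed 47, 31 and 38. The shares of the set were 72.5%, 67.5% and 50% in the resistant livers, against 58.8%, 38.8% and 47.5% in the susceptible livers. Over the whole table the shares above 0 were 65.1%, 61.99% and 52.8% in the resistant livers, against 54.3%, 46.1% and 52.6% in the susceptible livers. Resistant 1 and 2 were therefore the birds with the most genes of the set listed and also with the most genes listed in the table, and susceptible 2 was lowest on both counts. The groups overlapped, since susceptible 1 listed more of the set than resistant 3. The summed FPKM of the set was 544, 389 and 533 in resistant 1 to 3, against 759, 492 and 588 in susceptible 1 to 3. By this level susceptible 1 and 3 were the highest birds, although resistant 1 and 2 listed more genes. The groups overlapped on the sum as well.

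**Figure D1:**
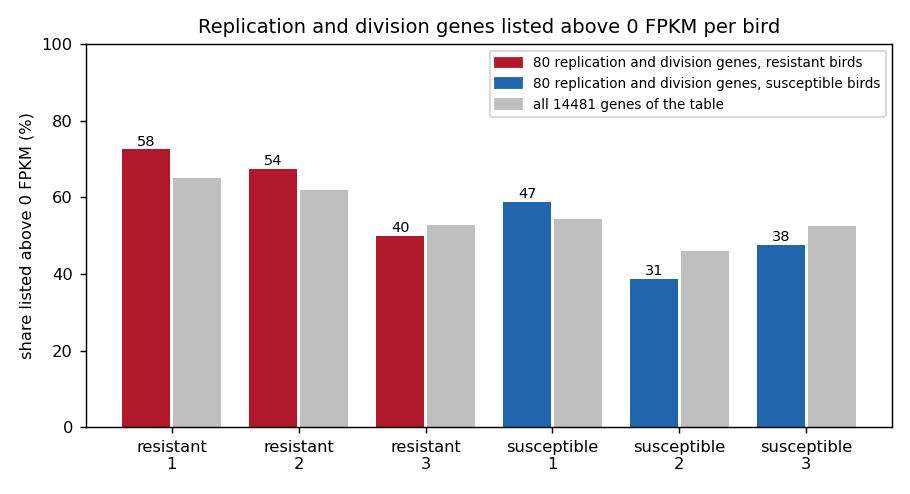
Share of genes listed above 0 FPKM in each bird (vertical axis, percent), for the 80 replication and division genes (coloured bars, with their number above the bar; red resistant, blue susceptible) and for all 14481 genes (grey bars). The set runs from 58 genes in resistant 1 to 31 in susceptible 2, and both bars are highest in resistant 1.

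The share of listed genes that rested on few fragments also differed between the birds. The deposited scaled counts are, for nearly all genes, whole multiples of 1 step per bird, and each step is read here as 1 fragment. On that reading resistant 1 to 3 had 6622998, 5809059 and 3831119 fragments, against 5539769, 4261587 and 4449344 for susceptible 1 to 3. Among genes listed above 0, the 10th percentile was 16, 18.4 and 26 fragments for resistant 1 to 3, against 33, 36 and 38 for susceptible 1 to 3. Genes with under 20 fragments made up 12.6%, 10.9% and 6.44% of those listed in the resistant livers, against 4.24%, 3.99% and 4.11% in the susceptible livers. Of the replication and division genes, 10, 12 and 7 had from 1 to 19 fragments in the resistant birds, against 3, 2 and 3 in the susceptible livers. The groups did not overlap on any of these 3 measures, and the part that they play in the group differences below was not tested. Genes with at most 1 fragment were listed in all 6 birds, at 0.50% to 0.72% of those listed, and on that share the groups overlapped. Serum albumin, the main plasma protein of hepatocytes, was listed at 0 in 2 of the livers, resistant 2 and susceptible 3, so a listed 0 is not read here as absence. The fragment totals of these 2 birds therefore include none for albumin.

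**Figure D2:**
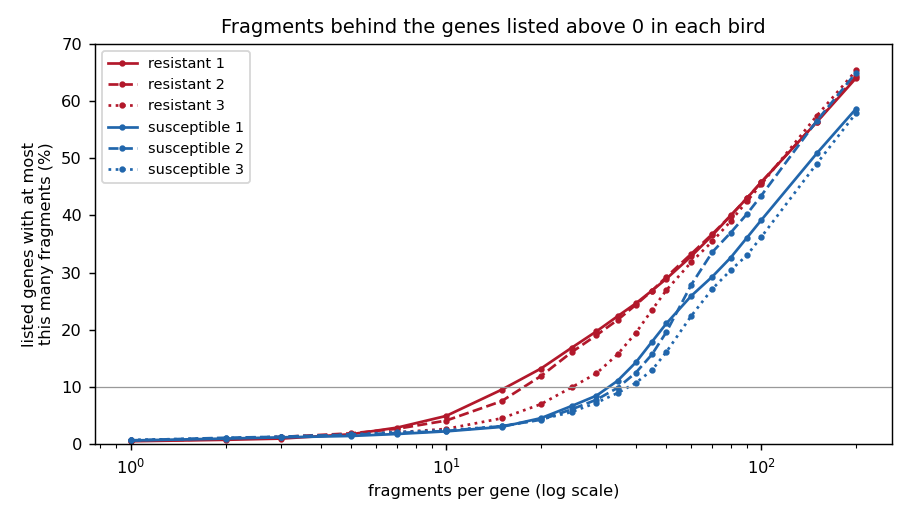
Percent of the genes listed above 0 in a bird (vertical axis) that had at most the number of fragments on the horizontal axis (log scale), 1 line per bird, red resistant and blue susceptible. At 20 fragments the resistant lines lie at 6.99% or more and the susceptible lines at 4.55% or less, and the grey line marks 10%.

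A mean FPKM of at least 0.5 over the 6 birds was required for the test, and 62 of the 80 genes had one. limma on log2(FPKM + 1) over all 9626 such genes called 0 of the 62 at a Benjamini-Hochberg adjusted p under 0.05, and 0 genes of the table (0.00%). At an unadjusted p under 0.05 the same fit counted 3 of the 62 genes higher in resistant birds, where 2.40% of all genes tested were, and 2 lower, where 1.48% of all genes were, so 8.06% of the set against 3.87% of all genes in either direction. The 3 were RFC4, CCNB2 and GINS3 and the 2 were TK1 and CDCA7L. All 3 resistant birds lay above all 3 susceptible birds for 3 genes (4.44% of all genes tested) and below them for 3 genes (3.98%). These shares of the set, 4.84% in each direction and 9.68% together, are near those of the whole table, where 8.41% of the genes did not overlap in either direction. No other tool was run. The p-values weigh each group difference against the spread between birds of a group, moderated over all genes tested. Listed 0s enter that spread.

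The mean log value of 27 genes was higher and that of 35 lower in resistant birds, with a median difference of -0.17 on the log2(FPKM + 1) scale. Over all genes tested the median was 0.05, and 47.2% of them were lower, against 56.5% of the set. The sign of the set's median depended on single birds. It was 0.016 without resistant 3, 0.23 without susceptible 1 and 0.030 without susceptible 3. Among the 15 genes above 0 in all birds, 10 were lower in resistant birds, with a median of -0.25. Of the 4993 tested genes of that kind 2824 were lower too, with a median of -0.09. All resistant values lay under all susceptible values for 2 of the 15, CDCA7L and CENPT, and for 5.75% of those 4993 genes. With each listed 0 left out of the fit as missing, 8 of 48 genes of the set were lower in resistant birds at an unadjusted p under 0.05 in limma, where 4.03% of all genes were, and 0 were higher, where 1.01% were. None of these passed the adjustment. At the 10th percentile, listed genes had 16, 18.4 and 26 fragments in resistant birds, against 33, 36 and 38 in susceptible birds. The share of listed genes with at most 1 fragment overlapped between the groups. In the range of the 10th percentile, leaving out 0s can keep low resistant values where low susceptible values drop out. The part of this in the 8 genes was not tested. RNA of whole liver cannot tell fewer dividing cells from less RNA per cell.

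**Figure D3:**
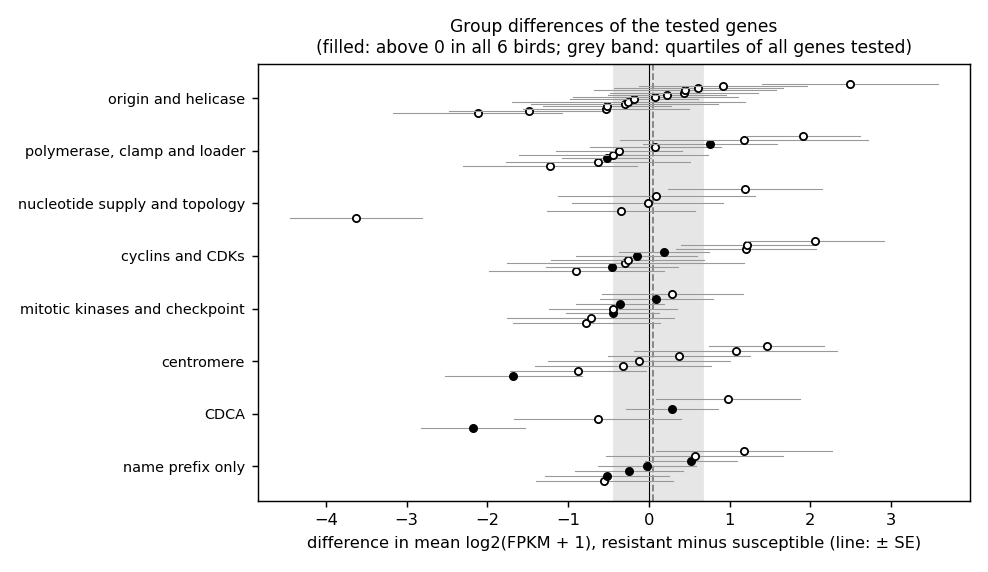
Difference in mean log2(FPKM + 1), resistant minus susceptible (horizontal axis), of the 62 tested genes by role, with a line of ± 1 SE; filled points are genes above 0 in all 6 birds. The grey band runs between the quartiles of all 9626 tested genes and the dashed line their median of 0.05; TK1 at -3.63 and CDCA7L at -2.18 lie at the left and GINS3 at 2.49 farthest to the right.

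No origin or helicase gene was listed above 0 in every liver. Of 17, 14 were tested, 7 leaning higher and 7 leaning lower by mean log value. GINS4 reached the highest level of the class, 26.3 FPKM in susceptible 3. MCM6, a subunit of the helicase, had 5.58, 4.93 and 0 FPKM in resistant livers 1 to 3 and 7.92, 0 and 7.16 in susceptible livers 1 to 3. MCM4 had 1.51, 4.31 and 3.22 in the resistant livers, against 10.3, 0 and 3.20 in the susceptible livers. MCM2 had 1.95, 0.763 and 2.88 in the resistant livers, against 9.63, 4.69 and 0 in the susceptible livers. MCM5, of the same complex, had 0.298, 1.30 and 0 in the resistant livers, against 2.85, 0 and 0.143 in the susceptible livers. MCM5 and MCM6 were at 0 in the same birds, resistant 3 and susceptible 2, MCM4 in susceptible 2 alone and MCM2 in susceptible 3 alone. Susceptible 1 had the highest value of these 4 subunits. MCM3 was above 0 only in resistant 1 and 2, at 1.82 and 0.856, and was too low to be tested.

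GINS3, a subunit of the GINS complex, had 9.71, 15.6 and 0 FPKM in resistant livers 1 to 3 and a listed 0 in each susceptible liver. These values rest on 37 and 67 fragments. At the 10th percentile of listed genes GINS3 would have 10.4, 14.9 and 12.1 FPKM in susceptible 1 to 3. The value of resistant 1 lies below all of these and that of resistant 2 above them. The galGal4 locus of GINS3 is on the minus strand of chromosome 11, 376121 to 379321. Its difference in mean log2(FPKM + 1) was 2.49 (SE 1.09, limma adjusted p = 0.984), which depends on the pseudocount and is no fold change. GINS4, another subunit, had 22.5, 8.10 and 0 in the resistant livers, against 0, 12.2 and 26.3 in the susceptible livers, so its groups overlapped fully. ORC6, a subunit of the origin recognition complex, had 0.197, 0.174 and 0 in the resistant livers, against 13.5, 0 and 6.93 in the susceptible livers. The ORC6 values of resistant 1 and 2 are 1 fragment each, against 57 and 29 fragments in susceptible 1 and 3.

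Among polymerases, clamp and loader, PCNA and RFC1 were the most abundant. PCNA, the sliding clamp, had 18.8, 39.6 and 123 FPKM in resistant livers 1 to 3 and 79.4, 0 and 107 in susceptible livers 1 to 3. Resistant 3 and susceptible 3 were its highest birds, and the groups overlapped. Its difference was 1.17 (SE 1.54), and without susceptible 2, the bird listed at 0, it was -1.005. RFC1, the large subunit of the clamp loader, averaged 17.3 ± 11.3 FPKM in resistant birds and 22.5 ± 2.12 in susceptible birds (SD, n = 3 each), with a difference of -0.53 (95% interval -1.77 to 0.72).

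RFC4, a small subunit of the same loader, had 2.97, 2.40 and 2.96 FPKM in resistant livers 1 to 3 and a listed 0 in each susceptible liver. It had 39, 36 and 23 fragments in the resistant birds. A gene of this length at the 10th percentile of listed genes would have 3.01, 4.29 and 3.48 FPKM in susceptible 1 to 3, above all 3 resistant values. The difference of RFC4 on the log2(FPKM + 1) scale was 1.91 (SE 0.70, limma adjusted p = 0.984). RFC5, a further subunit, had 12.8, 0 and 0.487 FPKM in the resistant livers, against 5.33, 4.08 and 7.12 in the susceptible livers, so its mean log value was lower in resistant birds where that of RFC4 was higher. RFC3 was above 0 only in resistant 1, at 0.807, and in susceptible 1, at 2.92.

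The groups overlapped for the other polymerase subunits named here. POLE2, a subunit of polymerase epsilon, had 5.29, 2.51 and 0.105 FPKM in resistant livers 1 to 3 and 7.07, 0 and 10.3 in susceptible livers 1 to 3. POLD3, a subunit of polymerase delta, had 7.18, 3.45 and 0.190 in the resistant livers, against 8.46, 10.4 and 0 in the susceptible livers. POLE3, a histone-fold subunit of polymerase epsilon, was above 0 in all birds and averaged 8.49 ± 4.83 in resistant birds and 5.39 ± 5.12 in susceptible birds (SD, n = 3 each). The catalytic subunits were low: POLA1 was at most 2.10 FPKM in any bird and POLE at most 0.802.

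In nucleotide supply, TK1 separated the groups. TK1, the cytosolic thymidine kinase that is made in S phase, had a listed 0 in each resistant liver and 5.48, 15.3 and 16.9 FPKM in susceptible livers 1 to 3. These are 18, 38 and 55 fragments. Every susceptible bird was above every resistant bird. The galGal4 locus of TK1 is on the plus strand of chromosome 18, 10142947 to 10144362. Being short, TK1 would have 4.10, 4.11 and 11.2 FPKM in resistant 1 to 3 at the 10th percentile of fragments of listed genes. The 3 susceptible values lie above the first 2 of these, and that of susceptible 1 lies below the third. In susceptible 1 to 3 the same percentile would give TK1 10.1, 14.4 and 11.7 FPKM. Susceptible 1 lies below its own such level, and susceptible 2 and 3 lie above theirs. The difference of TK1 in mean log2(FPKM + 1) was -3.63 (SE 0.82, limma adjusted p = 0.984). It depends on the pseudocount, being -6.83 with a pseudocount of 0.1, and is no fold change. Over the 16 alternatives that gave TK1 a value, its limma adjusted p lay between 0.709 and 1.00, and with 0s as missing it could not be fitted.

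The other genes of nucleotide supply overlapped between the groups. RRM2, the S-phase subunit of ribonucleotide reductase, had 1.19, 1.74 and 0 FPKM in resistant livers 1 to 3 and 5.22, 0 and 0 in susceptible livers 1 to 3. RRM1, the catalytic subunit, had 1.72, 3.58 and 0 in the resistant livers, against 0.5998, 1.78 and 4.76 in the susceptible livers. RRM2B, the subunit induced by p53 that also serves resting cells, was the most abundant of this class, with 16.5, 6.42 and 3.86 in the resistant livers, against 33.0, 14.4 and 0 in the susceptible livers. TOP2A, the topoisomerase of dividing cells, had 1.72, 0.697 and 8.24 in the resistant livers, against 0, 0 and 2.61 in the susceptible livers. The groups overlapped for each of these 4 genes.

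**Figure D4:**
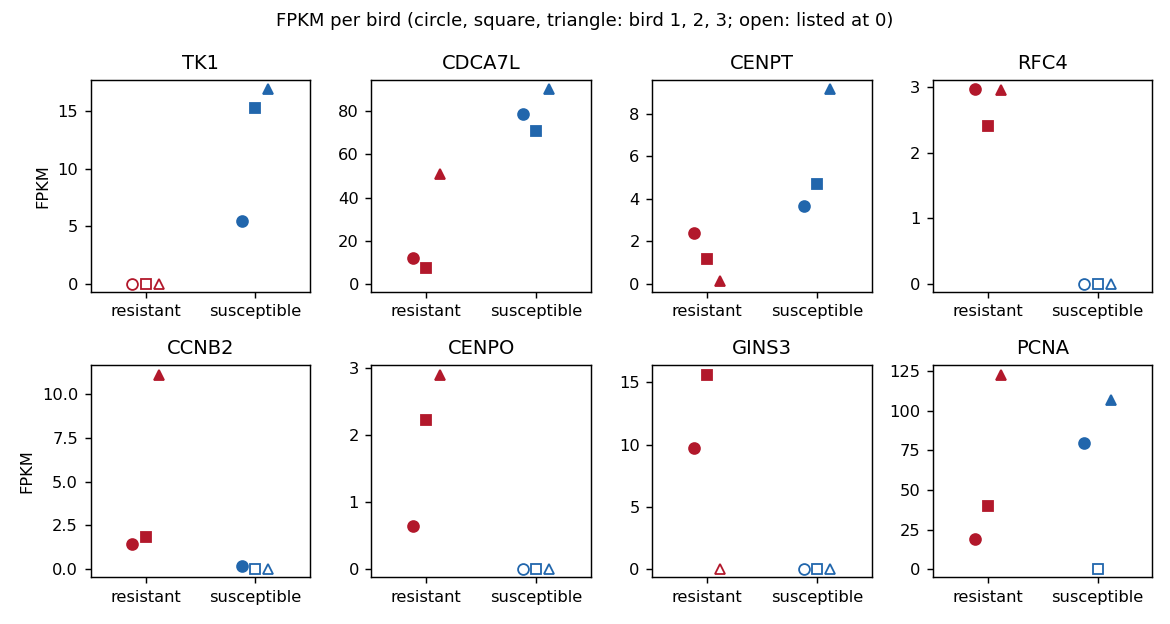
FPKM per bird (vertical axis, linear, a scale per panel) of 8 genes, resistant birds in red at the left and susceptible birds in blue at the right; circle, square and triangle are birds 1, 2 and 3, and open symbols are birds listed at 0. The susceptible birds lie above the resistant birds for TK1, CDCA7L and CENPT and below them for RFC4, CCNB2 and CENPO, while GINS3 and PCNA overlap.

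Cyclins and their kinases held both the most abundant gene of the set and some of the lowest. The D-type cyclins and CDK6, which act in G1, were the abundant ones. CDK6 had 130, 65.7 and 15.01 FPKM in resistant livers 1 to 3 and 141, 94.8 and 25.8 in susceptible livers 1 to 3. CCND2 had 33.7, 26.4 and 0 in the resistant livers, against 26.9, 31.5 and 0.928 in the susceptible livers. CDK6 and CCND2 were both lowest in resistant 3 and susceptible 3, the 2 birds with 0 of the 9 chromosome W genes above 0. The other birds had 5 and 4 such genes in resistant 1 and 2 and 3 and 2 in susceptible 1 and 2. CCND3 and PCNA were highest in those same 2 birds, CCND3 at 26.2 in resistant 3 and 20.5 in susceptible 3, against 5.11 to 10.2 in the other birds. This split was seen in the values and was not tested. CCND1 averaged 29.0 ± 4.83 in resistant birds and 29.2 ± 18.7 in susceptible birds (SD, n = 3 each), with a difference of 0.19 (95% interval -1.06 to 1.43).

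CCNB2, a B-type cyclin of mitosis, had 1.44, 1.86 and 11.1 FPKM in resistant livers 1 to 3 and 0.164, 0 and 0 in susceptible livers 1 to 3. These are 21, 31 and 96 fragments in the resistant livers, against 2, 0 and 0 in the susceptible livers. Every resistant bird was above every susceptible bird, and resistant 3 stood well above the other birds. Its difference in mean log2(FPKM + 1) was 2.06 (SE 0.86, limma adjusted p = 0.984), and 1.33 without resistant 3. The table's annotation also gives CCNB1 as a synonym of this gene. At the 10th percentile of listed genes CCNB2 would have 2.70, 3.86 and 3.13 FPKM in susceptible 1 to 3, above the values of resistant 1 and 2 and below that of resistant 3. CDK1, the kinase that B-type cyclins activate, had 2.80, 2.08 and 0 in the resistant livers, against 8.69, 0 and 6.80 in the susceptible livers, so CDK1 was listed at 0 in the bird with the highest CCNB2. CCNA2, the cyclin of S phase and G2, had 1.14, 0.666 and 0.321 in the resistant livers, against 7.15, 0 and 0 in the susceptible livers. CCNE1 had 2.85, 1.39 and 4.08 in the resistant livers, against 0, 2.84 and 0 in the susceptible livers, and CCNE2, also a G1/S cyclin, was above 0 only in resistant 2 and 3, at 0.929 and 5.48.

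The checkpoint genes BUB1 and BUB3 were above 0 in every bird. BUB1, a kinase of the spindle checkpoint, had 18.8, 14.98 and 22.4 FPKM in resistant livers 1 to 3 and 33.4, 11.7 and 34.7 in susceptible livers 1 to 3. BUB3, its binding partner, had 17.3, 13.4 and 31.3 in the resistant livers, against 43.6, 6.18 and 20.9 in the susceptible livers. Both genes were lowest in susceptible 2, and the groups overlapped. BUB1B, a further checkpoint gene, was listed at 0 in all 6 birds. AURKA and PLK1, kinases of spindle assembly, were each above 0 in 2 birds, AURKA at 1.43 in resistant 1 and 9.89 in susceptible 3 and PLK1 at 0.532 in resistant 2 and 6.67 in susceptible 2. PLK2, which lies on chromosome Z, averaged 8.26 ± 0.531 FPKM in resistant birds and 11.9 ± 3.40 in susceptible birds (SD, n = 3 each), with a difference of -0.45 (95% interval -1.74 to 0.84).

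Of 16 genes with the CENP prefix, 7 were tested and 5 were listed at 0 in all birds. The histone variant CENPA, the base of the centromere, was among those 5, with CENPJ, CENPL, CENPM and CENPP. CENPT, which links centromeric DNA to the outer kinetochore, was above 0 in all birds, with 2.42, 1.15 and 0.124 FPKM in resistant livers 1 to 3 and 3.68, 4.71 and 9.17 in susceptible livers 1 to 3. Each resistant bird lay below each susceptible bird, and resistant 3 rested on 1 fragment. Its difference in mean log2(FPKM + 1) was -1.68 (SE 0.85, limma adjusted p = 0.984), and -0.93 in the 4 livers with W-linked fragments. CENPO, a subunit of the inner kinetochore, had 0.650, 2.23 and 2.90 across resistant 1 to 3 and a listed 0 in each susceptible liver, with a difference of 1.46 (SE 0.71, limma adjusted p = 0.984) and 11 to 43 fragments. At the 10th percentile of listed genes CENPO would have 2.33, 3.33 and 2.70 FPKM in susceptible 1 to 3. Resistant 1 and 2 lie below all of these, and resistant 3 lies below that of susceptible 2 only. CENPQ, of the same subcomplex, had 6.54, 0 and 11.1 in the resistant livers, against 8.79, 0 and 0 in the susceptible livers. The other Z-linked members were CENPK, above 0 only in resistant 1 at 3.76 and susceptible 3 at 8.28, and CENPH, above 0 only in resistant 2 at 1.58.

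CDCA7L was the best measured gene that separated the groups. CDCA7L, a nuclear zinc-finger relative of CDCA7 that binds MYC in human cells, had 12.1, 7.27 and 51.0 FPKM in resistant livers 1 to 3 and 78.8, 71.0 and 90.5 in susceptible livers 1 to 3. It was counted from 110, 75 and 273 fragments in the resistant livers, against 597, 409 and 680 in the susceptible livers, above the 10th percentile of listed genes in every bird. All resistant birds were below all susceptible birds, and resistant 3 stood between the other resistant birds and the susceptible birds. The difference in mean log2(FPKM + 1) was -2.18 (SE 0.64, 95% interval -3.61 to -0.75, limma adjusted p = 0.984). It ranged from -2.95 without resistant 3 to -1.63 without resistant 2, and the adjusted p over all alternatives from 0.709 to 1.00. The galGal4 locus of CDCA7L is on the minus strand of chromosome 2, 30690282 to 30698829. The annotation gives RAPGEF5 as a synonym, although RAPGEF5 has a row of its own beside it.

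The groups overlapped for the other CDCA genes. CDCA7, a factor of the chromatin remodeller HELLS, had 2.62, 1.82 and 0 FPKM in resistant livers 1 to 3 and 9.12, 2.78 and 0 in susceptible livers 1 to 3. CDCA4 averaged 15.5 ± 5.79 in resistant birds and 12.6 ± 5.21 in susceptible birds (SD, n = 3 each). CDCA2, a chromatin protein of mitosis, was above 0 only in resistant 3, at 6.61, and CDCA3 was listed at 0 throughout. Resistant 3 also had the highest values of PCNA, TOP2A, CCNB2, CCNE2, CENPF and ORC1. It was the highest bird for 15 of the 62 tested genes, or 24.2%, and for 25.1% of all genes tested. Susceptible 1 was the highest bird for 19 of the 62, or 30.6%, and for 19.7% of all genes tested.

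**Figure D5:**
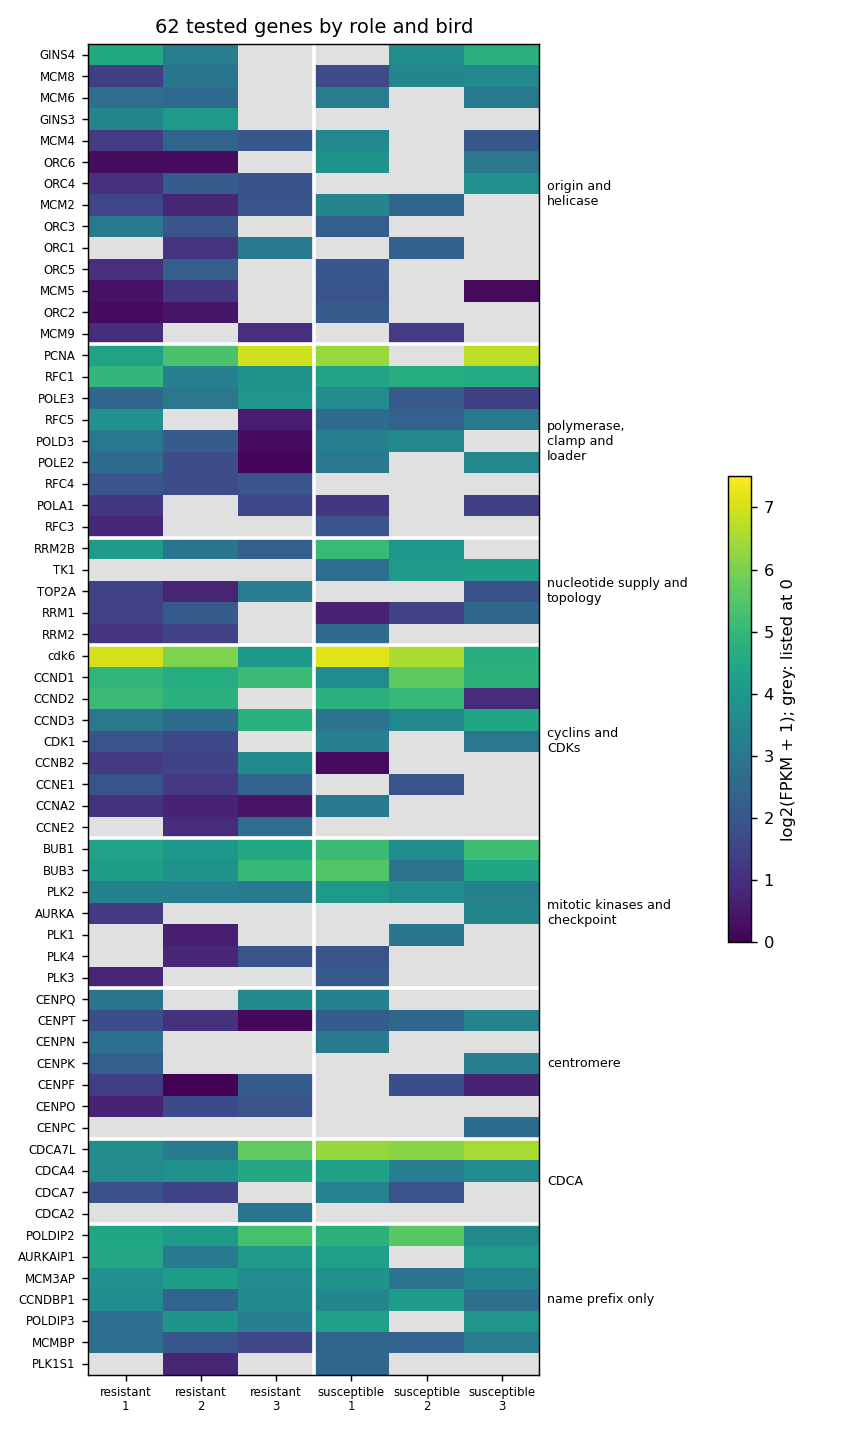
log2(FPKM + 1) of the 62 tested genes (rows, by role and then by mean level) in the 6 birds (columns, resistant left of the white line); grey cells are listed at 0. Grey is most frequent in susceptible 2, where 30 of the 62 genes are above 0, and least in resistant 1, where 54 are, and CDCA7L, CDK6 and PCNA hold the brightest cells.

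A class of 8 genes was set apart because other letters follow the prefix in their symbols. Of these, 4 were above 0 in all birds. Some are annotated as partners of the set, such as MCMBP, which binds the MCM complex, and POLDIP2, which interacts with polymerase delta. POLDIP2, which is known as a mitochondrial protein, averaged 25.3 ± 12.3 FPKM in resistant birds and 27.9 ± 17.3 in susceptible birds (SD, n = 3 each). MCM3AP, an mRNA export factor, averaged 14.0 ± 3.22 in resistant birds and 9.64 ± 3.49 in susceptible birds (SD, n = 3 each). AURKAIP1, a mitochondrial ribosome protein, stood at 22.2, 7.74 and 16.6 in the resistant livers, against 17.7, 0 and 15.4 in the susceptible livers. CENPP, CCNE2, MCMBP and MCM9 share a single locus with other genes in the table, so the positions given for these 4 are not those of the gene alone.

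Other genes of the pathway were taken from lists, and 0 of them passed limma over all genes. The genes named below from each pathway list, other than MKI67, are its 3 with the smallest p, so their separation was selected. Of 40 tested genes of mitosis outside the set, 25 had the higher mean log value in resistant birds and 15 in susceptible birds, and their median difference was 0.45, where 52.8% of all genes tested were higher and their median was 0.05. Marker lists of liver cells leaned both ways. Macrophages had a median of 0.54 with 6 of 8 tested genes higher. Stellate and endothelial cells had 0.46 with 11 of 15, and T, B and NK cells 0.28 with 6 of 9. Hepatocytes had -0.15 with 4 of 14 higher, red cells -0.84 with 1 of 4 and bile duct -0.06 with 2 of 5. The part of those cells in the mitosis list was not tested. Of the 53 mitosis genes in the table, 38, 33 and 31 were above 0 for resistant 1 to 3, against 27, 13 and 20 for susceptible 1 to 3. The whole table also had more genes above 0 in resistant 1 and 2, at 65.1% and 61.99%, than in the other birds, at 46.1% to 54.3%. Resistant 3, at 52.8%, lay below susceptible 1 on the whole table but above it on the mitosis list. The listed 0s enter the median, and their part in it was not tested. ECT2, a factor of cytokinesis, had 1.45, 2.25 and 5.07 FPKM across resistant 1 to 3 and a listed 0 in each susceptible liver. ZWILCH, a kinetochore protein of the checkpoint, had 4.16, 2.65 and 0 in the resistant livers, against 14.7, 16.6 and 15.6 in the susceptible livers, the reverse arrangement. STMN1, which regulates microtubules, had 19.1, 8.43 and 42.1 in the resistant livers, against 2.52, 17.8 and 0 in the susceptible livers. MKI67, the usual marker of cycling cells, had 0, 1.00 and 5.57 in the resistant livers, against 3.39, 0 and 2.35 in the susceptible livers, and its groups overlapped.

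Of 23 other tested replication genes, 10 were higher and 13 lower in resistant birds, with a median of -0.07. Of all genes tested, 47.2% were lower. TIPIN, which protects the fork, had 2.37, 9.82 and 0 FPKM in the resistant livers, against 9.72, 16.9 and 8.85 in the susceptible livers. WDHD1, a fork protein, had 0.9005, 1.05 and 2.34 across resistant 1 to 3 and a listed 0 in each susceptible liver. ASF1A, a histone chaperone, had 14.3, 15.2 and 18.2 in the resistant livers, against 0, 21.3 and 0 in the susceptible livers. Of 16 tested genes of the deoxynucleotide list, 5 were higher and 11 lower, with a median of -0.14. SHMT1, which makes one-carbon units for thymidylate, had 177, 132 and 168 in the resistant livers, against 318, 245 and 214 in the susceptible livers, without overlap, and a difference of -0.69 (SE 0.35, limma adjusted p = 0.984). ODC1, the first enzyme of polyamine synthesis and no nucleotide enzyme, had 9.99, 2.81 and 3.10 in the resistant livers, against 32.6, 21.3 and 23.5 in the susceptible livers. TK2, the mitochondrial thymidine kinase, had 14.3, 7.43 and 11.96 in the resistant livers, against 11.7, 0.358 and 6.23 in the susceptible livers, with overlap between the groups.

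Of 23 tested cell cycle brakes and E2F and RB genes, 11 were higher and 12 lower in resistant birds, with a median of -0.08. E2F8, a repressor of the E2F family, had 0, 0.733 and 0 FPKM in resistant livers 1 to 3 and 5.22, 4.01 and 4.88 in susceptible livers 1 to 3. E2F3, an activator of the same family, had 3.74, 1.54 and 4.02 across resistant 1 to 3 and a listed 0 in each susceptible liver. LIN52, a subunit of the DREAM complex that silences cell cycle genes at rest, had 6.59, 8.56 and 0 across resistant 1 to 3 and a listed 0 in each susceptible liver. E2F8 lay lower and E2F3 higher in resistant birds without overlap of the groups, where 8.41% of all genes tested did not overlap in either direction. These genes were named for their small p in this list, so the separation was selected from these data.

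The tissue matched its label. All 14 hepatocyte markers in the table were tested, and their summed FPKM ran from 18960 to 67960 in resistant birds and from 38630 to 64050 in susceptible birds. The lowest sums were in resistant 2 and susceptible 3, where albumin was listed at 0, as was APOB in resistant 2. CPS1, of the same list, was at most 3.90 FPKM in any bird. The 9 red cell markers in the table summed to between 0 and 26.0 FPKM in resistant birds and between 15.2 and 45.1 in susceptible birds, with HBE, EPB42 and SPTB at 0 in all birds. The list held 20 such markers, and the globins HBAA, HBAD, HBA1 and HBBA had no row under those symbols. The sum therefore covers only part of the red cell list. The 15 T, B and NK cell markers summed to 48.3 to 120 FPKM in resistant birds and 49.8 to 90.3 in susceptible birds, with CD5, LCK and PAX5 at 0 in all birds. The 9 macrophage markers summed to 375 to 547 in resistant birds and 155 to 577 in susceptible birds, with CD14 at 0 in all birds. The 15 stellate and endothelial markers summed to 306 to 562 and the 6 bile duct markers to 29.3 to 37.6 in resistant birds, against 282 to 409 and 29.5 to 51.6 in susceptible birds, with CFTR at 0 throughout. The groups overlapped on each sum, and the part of these cells in the levels of dividing-cell genes was not tested.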

How the data were processed

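Liver total RNA of 3 resistant and 3 susceptible birds was sequenced, and titles gave groups and bird numbers. FPKM values are used as the authors deposited them. Tools in the submitters' processing notes are Cuffdiff, Cufflinks, HISAT2 2.0.4 and cutadapt 1.9.3, with galGal4 as the build and no role for any tool. The authors also deposited a scaled signal per gene, headed counts per the file headers. Above 0.1, at least 99.85% of its values under 100 steps lay within 0.02 of a whole number of steps, and values divided by the step are called fragments. They cover the genes of this table only. No counting model was run. There were 0 columns of other samples.

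log2(FPKM + 1) was fitted with limma 3.58.1 in R 4.3.3 (lmFit, then eBayes using the trend option) as resistant minus susceptible. The fit took all 9626 genes averaging 0.5 FPKM or more and was 2-sided, with Benjamini-Hochberg adjustment over all of them and a threshold of 0.05. Differences on this scale shrink the change between low values above 0. A listed 0 can enlarge or reverse a difference, as for PCNA, at 1.17 and at -1.005 with 0s as missing. A mean with its SD is printed only where all 6 birds were above 0. No 2 birds of a group agreed within sampling noise (chi-square per degree of freedom of 144 or more). Coordinates are those of the table, with starts raised by 1. Figures were drawn with matplotlib 3.10.9.

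The members, lists and rules were chosen with earlier results of these data known. Genes were named by rule: TK1 and CDCA7L, the 12 most abundant members, members with an unadjusted p under 0.05 or without overlap, the most abundant and most different of each role, members on chromosome Z, MKI67, and the 3 smallest p of each pathway list. ORC2 and ORC4 lie outside that rule and were named for their unadjusted p in limma with 0s as missing. Other members outside that rule (MCM2, MCM3, MCM4, MCM5, MCM6, MCM9, ORC1, ORC6, RFC3, RFC5, POLE2, POLD3, POLE3, POLA1, POLE, RRM1, RRM2, TOP2A, CDK1, CCNA2, CCNE1, CCNE2, AURKA, BUB1B, CDCA2, CDCA3, CDCA7, CENPF, MCM3AP, MCMBP and those listed at 0 throughout) are named to account for the roles and were chosen after their values were seen. Albumin was named for the same reason, as were APOB and CPS1. Alternatives were other pseudocounts and filters, array weights, quantile normalization, rescaling on median ratios, a replicate block, 0s as missing, log2 scaled counts, the 4 birds with chromosome W fragments, and leaving out each bird.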

Additional observations from a re-analysis of the deposited data

How the results depend on the processing

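limma called 0 genes of the table and 0 replication and division genes under each of the 17 alternatives fitted. The lowest adjusted p was 0.175 over all genes, without susceptible 3, and 0.708 over the set, with 0s as missing. An edgeR fit was planned for fragments recovered from the scaled counts and was not run. The number of the set above 0 per bird stayed within 1.5 times its value with a limit of 0.5 FPKM or of 1 fragment. The median difference of the set, -0.17, ranged from -0.41 with 0s as missing to -0.018 with array weights, and from -0.39 to 0.23 leaving out 1 bird. With 0s as missing, 8 of 48 genes of the set were lower in resistant birds at an unadjusted p under 0.05 and 0 were higher, where 4.03% and 1.01% of all genes were. These were ORC6, MCM2, ORC2, CDCA7L, CCNA2, POLE2, ORC4 and CENPT, and ORC2, CCNA2 and ORC4 then rested on 1 susceptible bird each. ORC6 had 1 fragment in each of resistant 1 and 2, and POLE2 and CENPT had 1 in resistant 3. Genes with at most 1 fragment made up 0.50%, 0.59% and 0.64% of those listed in resistant 1 to 3. In susceptible 1 to 3 they made up 0.64%, 0.66% and 0.72%, so resistant birds did not list more of their genes at that level. Genes with under 20 fragments did make up more of those listed in resistant birds. The part of these shares in the 8 genes was not tested. The same-numbered birds correlated at 0.012, 0.040 and 0.17 in their deviations from the group means, which does not pair them. With the replicate block the counts of the set at an unadjusted p under 0.05 were 2 higher and 2 lower, against 3 and 2 without it, and the median was -0.17. 16 of the 37 named genes fitted turned direction under at least 1 alternative, none of them called in any, and the cause was not tested. With 0s as missing the differences were -1.005 for PCNA, 1.36 for CCND2, -0.20 for AURKAIP1, -0.036 for CENPQ, -1.41 for RRM2B and -0.40 for ASF1A. With array weights they were 0.10 for CDK6, -0.31 for BUB3, 0.75 for CCND2, -0.0069 for CDCA4, 1.10 for GINS4 and 0.23 for CENPK. In the 4 birds with chromosome W fragments they were -0.14 for BUB3, 0.035 for CCND2, -0.025 for CDCA4, -0.19 for CENPQ, -1.0035 for RRM2B, 2.01 for GINS4 and 1.13 for CENPK. POLDIP2 was at 0.10 under quantile normalization and 0.059 after rescaling by median ratios, where MKI67 was at 0.0056. Leaving out 1 bird, differences ranged from -1.17 to 0.39 for CDK6, -1.005 to 2.37 for PCNA, -0.34 to 0.65 for CCND1, -0.56 to 0.42 for POLDIP2, -0.61 to 0.70 for BUB3, -1.61 to 1.36 for CCND2 and -0.20 to 1.91 for AURKAIP1. They ranged from -0.81 to 0.27 for CCND3, -1.26 to 0.21 for PLK1, -1.41 to 1.13 for RRM2B, -1.67 to 1.04 for GINS4, -1.07 to 0.75 for CENPK and -0.79 to 0.57 for MKI67. Most members rest on under 100 fragments per bird, and the part of counting error in the spread of their levels was not tested.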
